A study of Mus musculus with 12 samples.

Results

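The transcripts uc008crn.4, uc008cro.4 and uc008crp.4 stand on consecutive lines of the deposited tables and were much more abundant in the mRNA of RNG140 knockout (KO) eyes than in that of wild-type (WT) eyes. They were chosen by that mRNA difference, so their mRNA values are a description and carry no test. They are 3 of 63759 UCSC transcript identifiers listed, and 3 of the 32803 features left when each distinct set of 12 counts is kept once. Each identifier comes with a second number whose unit is not stated and which is called here the listed length. It is 383 for uc008crn.4, 359 for uc008cro.4 and 315 for uc008crp.4.

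The study measured mRNA by RNA-seq and ribosome footprints by ribosome profiling in whole mouse eyes at postnatal day 0.5. The 4 groups were WT mRNA, RNG140KO mRNA, WT footprints and RNG140KO footprints, with 3 libraries in each and 12 in all. The labels give the 2 genotypes as the whole of the comparison, with no treatment, and do not say how the allele was made, how many eyes were pooled or whether libraries came from separate animals, so the spread between libraries may be partly technical. A number from 1 to 3 names the libraries of each group.

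RNG140 is the protein product of Caprin2, an RNA-binding protein of cytoplasmic RNA granules related to Caprin1. Ribosome profiling sequences the RNA fragments that ribosomes shield from nuclease, so a footprint level reports how many ribosomes sat on a message, and the ratio of footprints to mRNA is used as a measure of translation efficiency. Transcripts of the same gene often share exons, and a read from a shared exon fits each of them. Where such a read is counted for every transcript it fits, the transcripts carry largely the same measurement. None of the 3 identifiers occurs in the gene tables used here (0 of 3 matched), so the gene, its position and its function are not named, and Caprin2 and markers of eye tissues were not analysed here.

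Library totals ran from 327847 to 5966639 counts for footprints and from 666464 to 1244104 for mRNA. The shallowest library was WT footprint library 1, where 3 counts correspond to a level of 9.15 CPM (counts scaled to the library total), against 0.503 CPM in WT footprint library 3. Intervals on counts are exact Poisson 95% intervals and cover counting error only.

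In mRNA, uc008cro.4 had the most counts of the members. It had 29, 9 and 5 counts in WT libraries 1, 2 and 3, which is 23.3, 13.5 and 6.86 CPM. In KO libraries 1, 2 and 3 it had 67, 156 and 83 counts, or 94.4, 196 and 107 CPM. The lowest KO library thus lay above the highest WT library, an order that the choice of the members by mRNA favours. Their counting intervals (15.6 to 33.5 CPM in WT library 1 and 73.2 CPM as the lower bound in KO library 1) are no test of it. They leave out the spread between libraries. The means were 14.6 ± 8.27 CPM in WT and 132.7 ± 55.4 CPM in KO (SD, n = 3), a 9.12-fold ratio of means.

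The other members followed the same pattern. The mRNA of uc008crn.4 stood at 21.7, 10.5 and 6.86 CPM in WT and at 84.6, 172 and 93.2 CPM in KO, with means of 13.0 ± 7.73 and 116.7 ± 48.4 CPM (SD, n = 3). That of uc008crp.4 stood at 23.3, 12.004 and 8.23 CPM in WT and at 76.1, 148 and 79.0 CPM in KO, with means of 14.5 ± 7.85 and 101.2 ± 41.0 CPM (SD, n = 3). For each member KO library 2 was the highest and WT library 3 the lowest, and within WT the highest library exceeded the lowest 2.83-fold to 3.40-fold. All 3 members had every KO library above every WT library, which held for 10% of the 14131 features tested in mRNA. The choice of the members favours this order, so the share is background only.

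**Figure D1:**
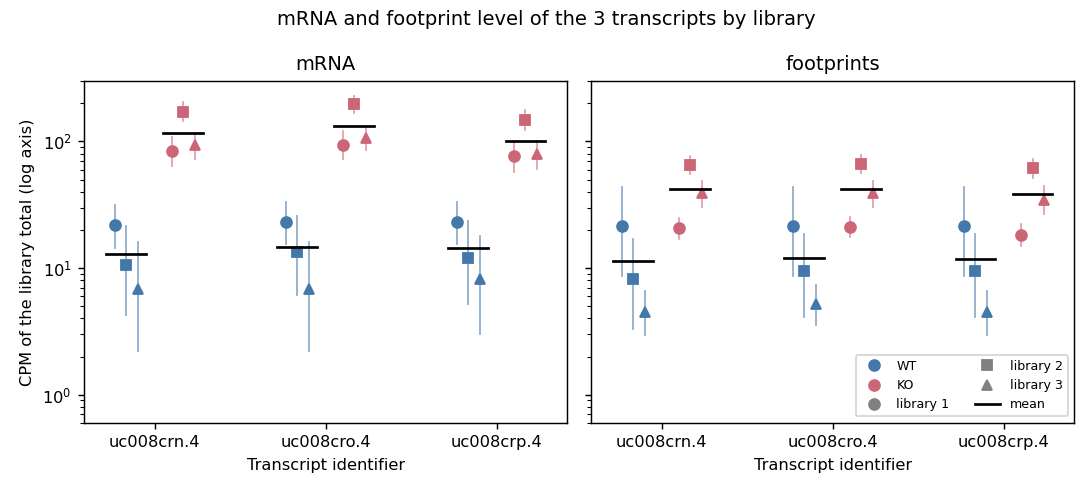
CPM of the library total (log axis) for the 3 transcripts in mRNA (left) and footprints (right). Each symbol is a library, its shape gives the library number, thin lines are exact Poisson 95% intervals and black bars are group means. In mRNA all KO libraries lie above all WT libraries, whereas in footprints KO library 1 lies level with WT library 1.

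Among the features tested in mRNA, the members stood at the low end in WT and at the high end in KO. In WT their mean mRNA level exceeded that of 6.98% to 10.4% of these features, and in KO that of 92.7% to 95.3%. The features tested had passed a filter on low counts, which the members could pass through their KO libraries. Their low rank in WT thus depends on the filter, and the difference in rank on the contrast that chose them. With edgeR's scaling (trimmed mean of M-values, TMM) the log2 fold change of KO over WT was 3.35 (SE 0.36) for uc008crn.4, 3.39 (SE 0.36) for uc008cro.4 and 3.0013 (SE 0.35) for uc008crp.4. These ranked 14, 13 and 21 from the highest of 14131 features. At an edgeR adjusted p under 0.05, 9.16% of all features were called higher in KO, which is given as background only. With library totals in place of TMM the median over all features moved from 0.02 to -0.27 and the calls from 1294 up and 851 down to 868 up and 2156 down. The folds of the members then read 3.04, 3.08 and 2.69.

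How far the transcripts carried the same counts can be bounded but not read from the deposited tables, which hold no reads. Over the 12 libraries uc008crn.4 had 684 counts, uc008cro.4 735 and uc008crp.4 623. If every read were counted for each transcript it fits, these could come from as few as 736 reads, the sum of the highest count in each library, and if no read were shared, from 2042. The counts of uc008crn.4 equalled those of uc008cro.4 in 3 libraries and lay below them in 9. The counts of uc008crp.4 lay below those of uc008cro.4 in 8 libraries, equalled them in 3 and exceeded them by 1 in WT mRNA library 3, so at least 1 read counted for uc008crp.4 was not counted for uc008cro.4. Across the 12 libraries the log2 CPM of the members correlated at Pearson 0.996 to 0.998. The points share libraries, depth and possibly reads, so this is a description.

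The shares differed between groups. In WT mRNA the counts of uc008crp.4 were 100%, 88.9% and 120% of those of uc008cro.4 in libraries 1, 2 and 3, on totals of 43 and 43 counts. In KO mRNA they were 80.6%, 75.6% and 73.5%, on 233 and 306 counts, so every KO library lay below every WT library. This is the contrast that chose the members, the WT counts are few, and no test was made. In KO footprints, by contrast, the share of uc008crp.4 was 86.3%, 92.7% and 89.0% of uc008cro.4, above all 3 KO mRNA libraries. The counts of uc008crn.4 were 93.1%, 77.8% and 100% of those of uc008cro.4 in WT mRNA and 89.6%, 87.8% and 86.7% in KO mRNA, so for this transcript the genotypes overlapped. In KO footprints its share was 96.6%, 99.3% and 100%, above all 3 KO mRNA libraries.

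The 2 differences between the assays within KO were picked after the values were seen. They measured 12.8 percentage points for uc008crp.4 (89.3 ± 3.18 against 76.6 ± 3.64, SD, n = 3) and 10.6 for uc008crn.4 (98.6 ± 1.81 against 88.0 ± 1.42, SD, n = 3). They are a description, with no test, since KO mRNA entered the choice of the members. In WT the same shares were 87.1% to 100% in footprints and 77.8% to 120% in mRNA, on 39 to 46 counts per transcript and assay, too few to place them.

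**Figure D2:**
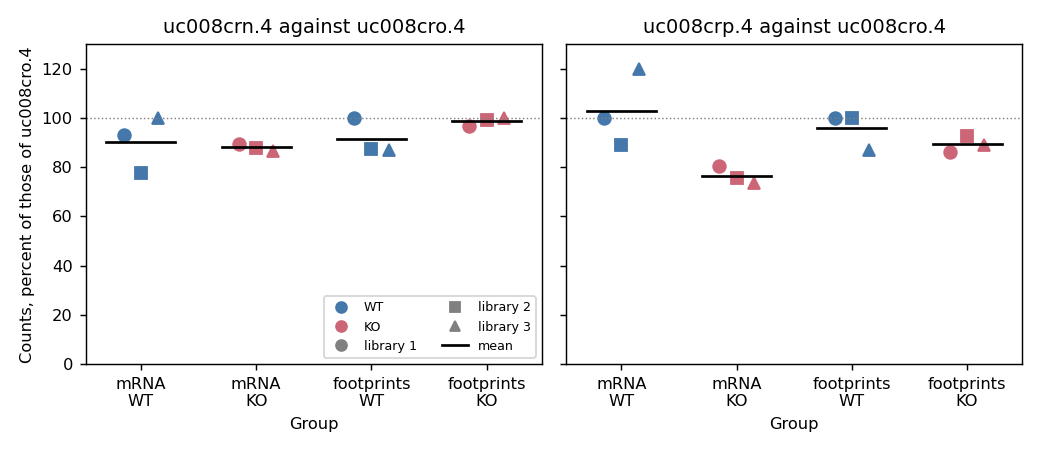
Counts of uc008crn.4 (left) and uc008crp.4 (right) as a percent of those of uc008cro.4 in each library, by group. Each symbol is a library, black bars are group means and the dotted line marks equal counts. In KO the shares are lower in mRNA (73.5% to 80.6% for uc008crp.4) than in footprints (86.3% to 92.7%), and the WT mRNA libraries scatter widely.

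Divided by the listed length, the members were close to each other. In KO mRNA they had 30.5 ± 12.6, 37.0 ± 15.4 and 32.1 ± 13.0 CPM per 100 units of listed length for uc008crn.4, uc008cro.4 and uc008crp.4, and in WT mRNA 3.40 ± 2.02, 4.06 ± 2.305 and 4.61 ± 2.49 (SD, n = 3). Differences among members were smaller than the spread between libraries in both genotypes. The members share their libraries, so that spread does not measure these differences. Within libraries the order held. In KO mRNA uc008cro.4 was the highest in each library (26.3, 54.7 and 29.9 in libraries 1, 2 and 3). In WT mRNA uc008crp.4 was the highest in each (7.40, 3.81 and 2.61), on few counts. No test of this order was made. In KO footprints the densities per 100 units were 10.9 (5.37 to 17.2), 11.7 (5.93 to 18.4) and 12.1 (5.83 to 19.5) CPM as means with the lowest and highest library.

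Footprints were measured in libraries that did not enter the choice of the members, but they may not be independent of it. The labels do not say whether footprint and mRNA libraries of the same number share eyes. Their deviations from the group means correlated at 0.460 for WT libraries 1 and 0.580 for WT libraries 3. For the other numbers the correlations were 0.0387 to 0.103. Libraries of different numbers were not compared, so these correlations cannot tell whether libraries share eyes. How far the choice by mRNA carried into the footprints was not tested. The footprints of uc008cro.4 numbered 7, 8 and 31 counts in WT libraries 1, 2 and 3, which is 21.4, 9.44 and 5.20 CPM. In KO libraries 1, 2 and 3 they numbered 117, 150 and 73 counts, or 21.3, 66.2 and 38.9 CPM. KO library 1 thus lay level with WT library 1, whose 7 counts leave an interval of 8.58 to 44.0 CPM. Mean footprint levels were 11.997 ± 8.38 CPM in WT and 42.1 ± 22.6 CPM in KO (SD, n = 3), a 3.51-fold ratio of means.

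Both other members gave nearly the same footprint values. In WT the footprints of uc008crn.4 were 21.4, 8.26 and 4.53 CPM and those of uc008crp.4 21.4, 9.44 and 4.53 CPM. In KO they were 20.6, 65.8 and 38.9 CPM for uc008crn.4 and 18.4, 61.3 and 34.7 CPM for uc008crp.4. By library totals 0 of 3 members had all KO libraries above all WT libraries, which held for 13.2% of the 17236 features tested in footprints.

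After TMM scaling the genotypes no longer overlapped, although WT library 1 rested on 7 counts for each member. The interval on those counts reached 44.0 CPM before scaling, and none was computed for scaled values. The scaling factors were 1.499, 1.03 and 0.70 for WT footprint libraries 1, 2 and 3 and 0.80, 1.08 and 1.06 for KO. In scaled CPM uc008cro.4 stood at 16.9, 10.6 and 8.46 in WT and at 30.6, 70.7 and 42.2 in KO. All 3 members then had every KO library above every WT library, against 14.5% of features.

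The footprints of all 3 members rose in KO by edgeR's quasi-likelihood test over all features, but only just. The log2 fold change was 2.26 (SE 0.48) for uc008crn.4, 2.14 (SE 0.46) for uc008cro.4 and 2.07 (SE 0.48) for uc008crp.4, that is 4.80-fold, 4.40-fold and 4.21-fold, with edgeR adjusted p of 0.0470, 0.0493 and 0.0498. Of the features tested, 0.685% were called higher in KO, and the median log2 fold change was -0.02. The 3 values do not stand for 3 separate measurements, since the members may count the same reads. The call was lost without WT replicate 2 (edgeR adjusted p = 0.146 for uc008cro.4), KO replicate 1 (0.0995), KO replicate 2 (0.244) or KO replicate 3 (0.110), and with library totals in place of TMM (0.209). It was also lost with the replicate number as a block (0.0909), with library sizes kept from before the low-count filter (0.0504) and with every transcript fitted separately (0.0544), again by edgeR for uc008cro.4. It was kept without WT replicate 1 (0.0132) or WT replicate 3 (0.0123). By edgeR it was also kept with DESeq2 size factors (0.0484) and with the 3 transcripts as 1 feature (0.0496). With no low-count filter (0.00629 by edgeR), the DESeq2 test (0.00782) and limma voom (0.00104) it was kept too. Those settings called 968, 711 and 3772 features in footprints, against 193. Without WT replicate 2, KO replicate 1 or KO replicate 2 edgeR called 0 features, and without KO replicate 3 it called 9. With library totals and with the block it also called 0. Where 0 features were called, the loss was not particular to the members. Without WT replicate 1 and WT replicate 3, where the call was kept, edgeR called 500 and 3057. The fold of uc008cro.4 stayed between 1.76 and 2.39 (log2) when replicates were left out.

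The footprint folds were smaller in value than the mRNA folds, so the footprint to mRNA ratio was lower in KO. The mRNA that chose the members enters this ratio, so it is given without a test. Footprint and mRNA libraries with the same number were set together, although the labels do not say that they came from the same eyes. For uc008cro.4 the ratio was 0.916, 0.699 and 0.757 in WT samples 1, 2 and 3 and 0.225, 0.337 and 0.362 in KO. Every KO value lay below every WT value.

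For uc008crn.4 the WT ratios were 0.984, 0.787 and 0.660, against KO ratios of 0.243, 0.381 and 0.418. For uc008crp.4 the WT ratios were 0.916, 0.787 and 0.550, against KO ratios of 0.241, 0.413 and 0.439. All 3 members had KO below WT throughout, as did 5.11% of the 25927 features with at least 10 counts in each assay. The mRNA difference that chose the members favours this order, and the members may count the same reads. The share is thus background only. The separation depended on joining libraries by number. Over all 9 combinations of a footprint with an mRNA library of uc008cro.4 the ratio ran from 0.223 to 3.11 in WT and from 0.108 to 0.701 in KO, and these ranges overlapped.

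**Figure D3:**
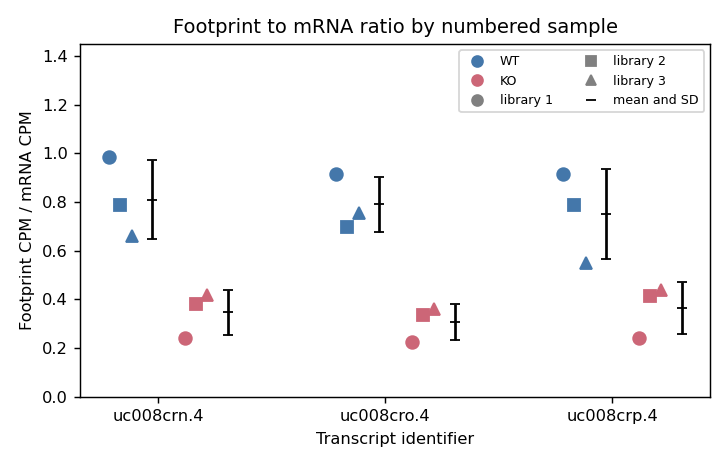
Ratio of footprint CPM to mRNA CPM for the 3 transcripts, with libraries of the same number set together. Symbols are numbered samples, and black marks with bars are means with SD (n = 3). The WT samples lie between 0.550 and 0.984 and the KO samples between 0.225 and 0.439.

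In the model of all 12 libraries the log2 change of the ratio was -0.97 (SE 0.64) for uc008crn.4, -1.14 (SE 0.63) for uc008cro.4 and -0.80 (SE 0.63) for uc008crp.4, against a median of -0.07 over all features. With the replicate number as a block these values were -1.25 (SE 0.54), -1.40 (SE 0.53) and -1.08 (SE 0.53), and without WT replicate 1 that of uc008cro.4 was -1.51 (SE 0.69). The edgeR interaction test called 0 features lower in KO (0.0%), with 2567 at an unadjusted p under 0.05 in either direction. With DESeq2 58 features were called in either direction, and with limma voom 541. With library totals the median over all features moved to 0.13 and the members to -0.78, -0.94 and -0.62.

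The identifiers listed beside the members were then followed in the order of the tables. Of the 6 lines before and the 6 lines after them, the 3 just before (uc012aui.2, uc012auj.2 and uc012auk.2) and the 2 just after (uc008crq.1 and uc008crr.3) also had far more mRNA in KO, by 3.25 to 4.50 on the log2 scale, which with the members makes a run of 8 consecutive lines. Since these neighbours may count the same reads as the members, their mRNA values are a description like those of the members, and their footprints are no separate support. The immediate neighbour uc012auk.2 had 4.82, 0 and 1.37 CPM of mRNA in WT and 22.6, 41.5 and 18.1 CPM in KO, on 7 and 63 counts in all. KO exceeded WT by 3.64 on the log2 scale in mRNA (SE 0.58) and by 2.43 in footprints (SE 0.69, adjusted p = 0.0729 by edgeR). On the other side uc008crq.1 had 7.23, 3.0009 and 1.37 CPM of mRNA in WT and 28.2, 50.3 and 38.8 CPM in KO. The log2 difference was 3.41 in mRNA (SE 0.45) and 2.32 in footprints (SE 0.53, adjusted p = 0.0493 by edgeR).

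Of the lines beyond this run, those with enough counts did not pass the test, which does not show that they were unchanged. The run was ended where the values fell, so this is a description. The next line after it, uc008crs.1, differed by 0.78 on the log2 scale in mRNA (SE 0.41, adjusted p = 0.204 by edgeR) and by 0.27 in footprints (SE 0.39, adjusted p = 0.723 by edgeR). The one after that, uc008crt.1, differed by 0.15 in footprints (SE 0.48, adjusted p = 0.887 by edgeR) and had too few counts in mRNA. The 3 lines before the run held 4, 0 and 1 counts over all 12 libraries and could not be tested. The names uc012aui.2, uc008crs.1 and uc008crt.1 were picked after their values were seen.

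**Figure D4:**
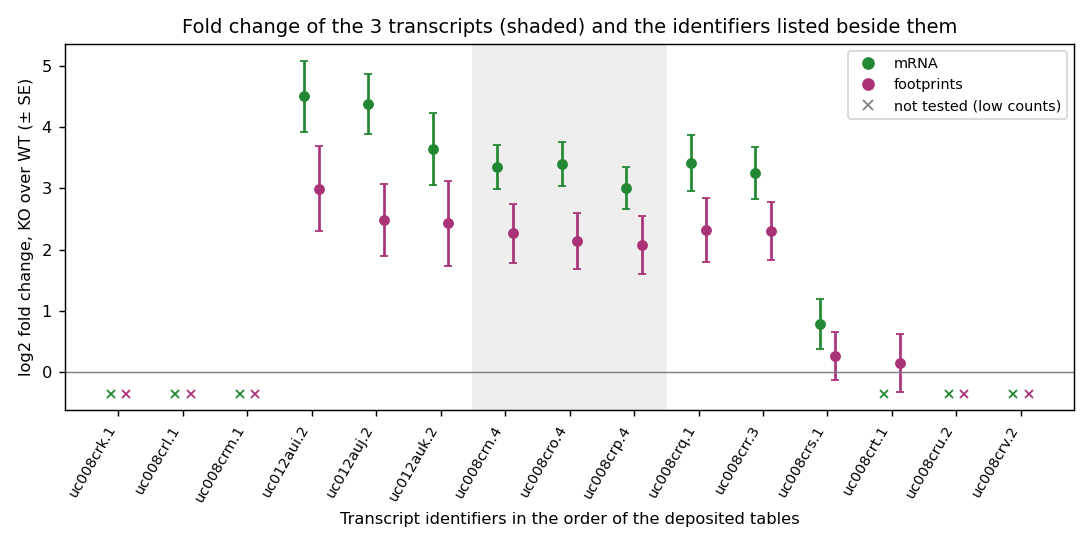
Log2 fold change of KO over WT (± SE) in mRNA and footprints for the 3 transcripts (shaded) and the 6 identifiers listed before and after them, in the order of the deposited tables. Crosses mark features with too few counts. A run of 8 lines has mRNA values from 3.0013 to 4.50 and footprint values from 2.07 to 2.99, and uc008crs.1 just after it has 0.78 and 0.27.

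The same neighbours came out as the features most like uc008cro.4. Among 12691 features tested in both assays, members left out, the log2 CPM of uc012auj.2 had the highest Pearson correlation with it over the 12 libraries (0.989) and that of uc008crr.3 the second highest (0.986), and 21 features exceeded 0.9. By Spearman correlation uc012auj.2 stayed first and uc012aui.2 came second (0.979), with 31 features over 0.9. With a prior count of 0.5 uc008crr.3 came first (0.985) and uc012auj.2 second (0.968), with 17 over 0.9. In KO mRNA uc012auj.2 reached 40.9, 86.8 and 46.6 CPM against 5.63, 3.0009 and 0 in WT. For uc008crr.3 the values were 32.4, 79.3 and 46.6 CPM against 8.04, 9.003 and 2.74. Both had KO library 2 highest, as the members had. These correlations are descriptions, since the points share libraries, depth and possibly reads.

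All 5 neighbours had shorter listed lengths, from 60 to 128, and fewer counts than the members. In each of the 12 libraries their counts were at or below those of every member, and over all libraries they came to 23.9% to 47.9% of the counts of uc008cro.4. Per 100 units of listed length they had 32.6 to 55.9 CPM in KO mRNA and 1.26 to 5.54 CPM in WT mRNA, and the members 30.5 to 37.0 and 3.40 to 4.61. Whether the 8 lines are transcripts of the same gene cannot be told from the tables used here.

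The members were also set beside features of like listed length. Among the 1614 mRNA features of listed length 300 to 400 the median log2 fold change was 0.18, against 0.02 over all features, and 1.67% were more than 4-fold higher in KO, against 1.30%. Among the 2224 footprint features of that length the median was 0.03, against -0.02 over all features, and 1.21% were more than 4-fold higher, against 1.03%. The footprint folds of uc008crn.4, uc008cro.4 and uc008crp.4 ranked 82, 121 and 145 from the highest of 17236. The median change of the ratio at that length was -0.16, against -0.80 to -1.14 for the members. The part of listed length in the members' values was not tested.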

How the data were processed

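The authors deposited 1 table per library, with a UCSC transcript identifier, a listed length and a whole-number read count, not normalized. The submitters' processing notes name TopHat2 2.0.9, Bowtie2 2.3.4.2, CASAVA 1.8 and the genome build mm10. How reads were counted, on which annotation, and how a read matching more than 1 transcript was handled was not given in the sources used. The listed length has no stated unit and is missing for 17340 identifiers.

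The members, lists and tests were chosen with earlier results of these data known. Identifiers with the same 12 counts were kept once (32803 features). Footprints and mRNA were fitted with edgeR 4.0.16 (R 4.3.3, quasi-likelihood F test, TMM, default low-count filter, library sizes recomputed after it, Benjamini-Hochberg over all features, threshold 0.05), and their ratio as the assay-by-genotype interaction, with at least 10 counts per assay. SE come from the F statistic. Likeness used log2 CPM with a prior count of 2. Named are the members, the lines just before and after them, and the 2 features most like uc008cro.4. Alternatives used DESeq2 1.42.0, limma 3.58.1, other scalings and filters, a replicate block and left-out replicates. No sequence is printed, because no identifier was matched.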

Additional observations from a re-analysis of the deposited data

How the results depend on the processing

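Library totals and library sizes kept from before the low-count filter were added after the data were seen. The direction of every member's mRNA, footprint and ratio change was kept in all alternatives run, and the cause of a changed call or count was not tested. The footprint call of the members ended in 8 of 16 alternatives. The 16 include the main fit read at an edgeR adjusted p under 0.10, which could not lose the call. With library totals the log2 folds (uc008crn.4, uc008cro.4 and uc008crp.4 in turn) were 2.23, 2.12 and 2.03. They were 2.25, 2.12 and 2.06 with library sizes kept (edgeR adjusted p from 0.0504 to 0.0507). With every transcript separate they were 2.26, 2.13 and 2.07. When replicates were left out they ran from 1.88 to 2.53, 1.76 to 2.39 and 1.66 to 2.35. In mRNA they ran from 2.93 to 3.95, 2.97 to 3.92 and 2.59 to 3.53, and the ratio from -1.36 to -0.91, -1.51 to -1.01 and -1.14 to -0.69. Adjusted p for footprints ranged from 0.000810 to 0.244 over the alternatives.

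With the replicate number as a block the footprint folds were 2.16, 2.04 and 1.96 (edgeR adjusted p from 0.0830 to 0.0916), so the call was lost, and 0 features were called in footprints and 321 in the ratio. No label ties the numbers to shared animals, and the correlations below cannot tell, since libraries of different numbers were not compared. Deviations from the group means, compared between libraries of the same number, had correlations from 0.0387 to 0.580 for footprints with mRNA (3 of 6 over 0.1), -0.467 to 0.169 between genotypes in footprints and 0.00143 to 0.115 in mRNA.

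Features called in footprints (193) were 0 with library totals, 81 with library sizes kept, 711 with DESeq2, 3772 with voom, 82 with every transcript separate, 968 with no filter on low counts, 1213 at an adjusted p under 0.10, and 0 to 3057 with replicates left out. In mRNA (2145) they were 1281 with DESeq2, 3991 with voom and 652 to 4379 with replicates left out. In the ratio (0) they were 2 with DESeq2 size factors, 58 with DESeq2, 541 with voom, 5 without the filter, 1 with every transcript separate and 0 to 131 with replicates left out. WT rests on 39 to 43 mRNA counts and 41 to 46 footprint counts per member, which limits the precision of both.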
